A study of Mus musculus with 4 samples.

Results

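Otx1, Otx2, Gbx2, En1, En2, Pax2, Pax5 and Pax8 encode transcription factors that act at the boundary between midbrain and hindbrain. They were chosen by name, and all 8 were found among the 20719 genes listed in the deposited matrices, in each of the 4 libraries. Single-cell RNA sequencing had been done on heads of E10.5 mouse embryos, titled embryonic brain. Both genotypes were sampled, Apcdd1+/- and WT, with 2 libraries each. The labels state neither strain, sex nor how many embryos went into a library, so the spread between libraries may be technical. They also leave out which part of Apcdd1, a gene for a membrane inhibitor of Wnt signalling, was altered.

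In the early neural tube, Otx2 is known to be expressed in forebrain and midbrain and Gbx2 in anterior hindbrain, and each restrains the other, so that their border sets the position of the isthmus. The isthmus is a signalling centre that secretes Fgf8 and, on its midbrain side, Wnt1. Engrailed (En1, En2) and paired-box (Pax2, Pax5, Pax8) factors are known to be expressed across this border and to maintain the midbrain and cerebellar territories.

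Promoter windows are shown for the 2 genes whose border is at issue, Otx2 and Gbx2, and for Pax5 and Pax8, which were detected together in cells more often than their frequencies give. RefSeq windows (GRCm38.p6, 250 bases before to 50 after a start) matched 6 of the 8 genes. Capitals mark TAATTA (homeodomain core), TAATCC (bicoid type, the class bound by OTX proteins) and GGGCGG (GC box), searched with ATCAAAG (TCF/LEF) on both strands, so that a match on the other strand appears as its reverse complement. Otx2 has 4 windows, and the one shown was chosen after the search because it held the most matches. All 4 windows lie on the minus strand, at chr14:48665060-48665359 (Otx2), chr1:89931127-89931426 (Gbx2), chr4:44710645-44710944 (Pax5) and chr2:24475550-24475849 (Pax8).
Otx2: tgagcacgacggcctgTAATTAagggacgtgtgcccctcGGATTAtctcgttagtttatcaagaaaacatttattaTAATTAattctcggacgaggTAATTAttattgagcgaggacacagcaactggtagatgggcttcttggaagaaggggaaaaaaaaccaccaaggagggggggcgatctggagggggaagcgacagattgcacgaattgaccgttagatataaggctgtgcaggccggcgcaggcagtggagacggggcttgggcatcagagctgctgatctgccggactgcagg
Gbx2: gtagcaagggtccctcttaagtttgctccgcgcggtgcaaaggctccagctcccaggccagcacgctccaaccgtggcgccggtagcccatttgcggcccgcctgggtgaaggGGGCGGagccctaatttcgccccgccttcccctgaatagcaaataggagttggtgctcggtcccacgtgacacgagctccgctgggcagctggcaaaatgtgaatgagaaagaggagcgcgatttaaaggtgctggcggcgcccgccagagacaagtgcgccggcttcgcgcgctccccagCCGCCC
Pax5: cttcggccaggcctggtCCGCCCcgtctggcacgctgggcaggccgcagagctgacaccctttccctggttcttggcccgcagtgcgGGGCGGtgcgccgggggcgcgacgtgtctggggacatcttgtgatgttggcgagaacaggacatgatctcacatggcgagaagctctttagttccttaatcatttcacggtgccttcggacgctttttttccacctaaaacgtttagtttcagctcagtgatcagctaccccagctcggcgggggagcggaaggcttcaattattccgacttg
Pax8: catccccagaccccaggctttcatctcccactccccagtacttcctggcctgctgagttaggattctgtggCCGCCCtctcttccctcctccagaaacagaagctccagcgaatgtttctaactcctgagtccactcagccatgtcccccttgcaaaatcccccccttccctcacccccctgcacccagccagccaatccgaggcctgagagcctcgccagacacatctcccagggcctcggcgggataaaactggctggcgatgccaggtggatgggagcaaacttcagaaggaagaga

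The Otx2 window held 3 homeodomain cores and 1 bicoid-type match, and the Gbx2 and Pax5 windows held 2 GC boxes each and the Pax8 window 1. Over 32851 promoter windows, 5.29% held the homeodomain core, 7.06% the bicoid-type motif, 3.73% the TCF/LEF motif and 35.7% the GC box. No TCF/LEF match stood in these 4 windows. A match is a description of letters and shows no binding.

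In mm10 (GENCODE vM21), Otx1 lies at chr11:21994764-22002897 (minus strand), Otx2 at chr14:48657677-48673819 (minus), Gbx2 at chr1:89927956-89931179 (minus) and En1 at chr1:120602418-120607992 (plus). En2 lies at chr5:28165694-28172166 (plus), Pax2 at chr19:44756045-44837871 (plus), Pax5 at chr4:44524757-44710487 (minus) and Pax8 at chr2:24420560-24475599 (minus). Genes on the opposite strand overlap Otx2 (Otx2os1), Gbx2 (D130058E05Rik), En2 (Gm43610), Pax2 (Gm20395, 1700039E22Rik), Pax5 (Gm12462 and others) and Pax8 (Gm13415). Whether the counting used strand is not stated, so reads of such a pair cannot be told apart.

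The files hold raw counts of unique molecular identifiers (UMIs), and 24259 cells were kept, 9501 and 5544 in the libraries labelled Apcdd1+/- and 6258 and 2956 in WT. Median UMIs per barcode were 8949 and 8686 in Apcdd1+/- and 11167 and 16260 in WT, so levels are given as the mean over cells of UMIs per 10000. Of the listed cells, 0.838% to 1.35% per library carried a bead barcode found in another library. Markers sorted 13512 cells into a neural progenitor-like class. These were assigned to 10 regional gates by genes outside the 8, taking the first that matched: among them Fgf8, Fgf17, Fgf18 and Cnpy1 for the isthmus, Hox genes or Msx3 for hindbrain, and Pax7 without Pax6 for dorsal midbrain. A gate is a set of cells with those UMIs, not a dissected region. The UMIs of the isthmus genes were summed, so that Cnpy1 alone could pass a cell. The isthmus gate was matched before the hindbrain, floor plate, diencephalon and dorsal midbrain gates. A cell that passed it and one of these was not counted in the latter. Of the 2017 cells in the isthmus gate, 1013 also passed another gate, and 4827 progenitor-like cells passed none. Apcdd1 measured 0.813 and 0.520 UMIs per 10000 in the libraries labelled Apcdd1+/-, against 0.703 and 0.644 in WT. The groups overlapped, so the gene did not separate the labels. UMIs from outside an altered part would not check them.

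Otx2, a homeodomain factor needed for forebrain and midbrain, had its lowest means in the hindbrain gates. Its level was 0.518 and 0.143 UMIs per 10000 in the Msx3 hindbrain gate of Apcdd1+/- libraries and 0.274 and 0.637 in WT. In the dorsal midbrain gate it was 3.48 and 3.11 in Apcdd1+/- and 3.82 and 3.77 in WT, above every Msx3 hindbrain library. A UMI of Otx2 was seen in 73.3% of 424 dorsal midbrain cells and in 10.2% of 665 Msx3 hindbrain cells, beside 7.58% of 132 erythroid-like cells, which should lack the gene. Median depth was 11008 UMIs in dorsal midbrain, 10684 in Msx3 hindbrain and 19612 in erythroid cells. The Hox hindbrain gate had 21 cells in Apcdd1+/- replicate 1, where Otx2 measured 2.18, and 0.081, 0.430 and 0.237 in the other 3 libraries.

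Region differences were taken against the unweighted mean of the other gates' log levels. Gates with very low levels weigh as much in it as the rest, so plain levels are given where a called difference ran the other way. Otx2 was lower in hindbrain by a log2 difference of -2.96 (SE 0.12, edgeR adjusted p = 4.3e-24), and Otx1, its paralog with roles in forebrain and midbrain, by -2.54 (SE 0.21, adjusted p = 1.7e-13). For the hindbrain fit the Hox and Msx3 gates were summed, and 13.6% of 12235 genes passed the threshold of 0.05 (7.68% higher, 5.88% lower). In the dorsal midbrain, 5.99% of 11536 genes passed (3.58% higher, 2.41% lower). There Otx2 was higher by 1.46 (SE 0.11, edgeR adjusted p = 5.0e-15), while Otx1 differed by 0.34 (SE 0.25, adjusted p = 0.551). The plain level of Otx1 there was 0.247, below the mean of 0.276 over the other 7 gates fitted. Otx1 had its highest mean in the diencephalon gate, at 0.549 ± 0.083 UMIs per 10000 (SD, n = 4 libraries), and its range there overlapped that of the next gate. In the telencephalon, where 26.3% of genes passed (13.6% higher, 12.6% lower), the Otx1 difference was 0.54 (SE 0.15, edgeR adjusted p = 0.0050), a call lost without Apcdd1+/- replicate 2 (0.42), without WT replicate 1 (0.39), with DESeq2 (0.47) and with each gate minimum raised by 1 UMI (0.061). As a plain level Otx1 was not raised there, at 0.255 UMIs per 10000 against a mean of 0.275 over the other 7 gates fitted, 3 of which lay higher. Otx2 there differed by 0.17 (SE 0.09, edgeR adjusted p = 0.211) and by -0.62 with cells that passed exactly 1 gate. Its plain level of 1.92 lay below the mean of 2.27 over the other 7 gates.

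Gbx2, a homeodomain factor of anterior hindbrain, was sparse everywhere. It had a UMI in 7.22% of Msx3 hindbrain cells, 6.59% of isthmus cells and 5.78% of Hox hindbrain cells, against 1.65% of dorsal midbrain cells and 0.173% of telencephalon cells. None of 832 epithelium-like cells had one. Levels in the Msx3 hindbrain were 0.035 and 0.115 UMIs per 10000 in Apcdd1+/- and 0.088 and 0.079 in WT, and the highest telencephalon library had 0.0035. Gbx2 was higher in hindbrain by 2.90 (SE 0.33, edgeR adjusted p = 1.7e-09) and in the isthmus by 2.37 (SE 0.28, adjusted p = 1.8e-09), and lower in telencephalon by -3.64 (SE 0.63, adjusted p = 8.4e-06). Each gate overlapped the next in the order of Gbx2 means, so that order is not resolved.

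**Figure D1:**
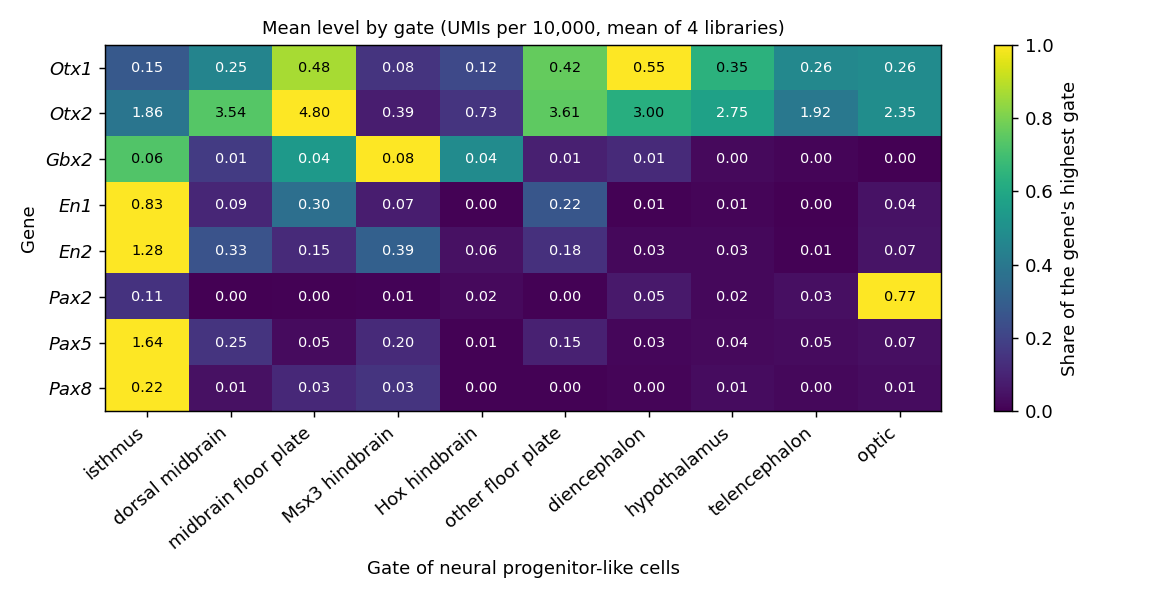
Mean level of the 8 genes (rows) in the 10 gates of progenitor-like cells (columns), in UMIs per 10000 averaged over 4 libraries; colour gives each gene's level as a share of its own highest gate. En1, En2, Pax5 and Pax8 peak in the isthmus, Gbx2 has its highest mean in the Msx3 hindbrain gate, and Pax2 peaks in the optic gate, which held 57 cells.

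The Engrailed genes and Pax5 and Pax8 had their highest mean in the isthmus gate, with all 4 libraries above every library of the next gate. En1, the earlier-acting Engrailed factor, measured 0.817 and 0.703 UMIs per 10000 there in Apcdd1+/- and 0.956 and 0.848 in WT. En2, its paralog with a role in cerebellar patterning, measured 1.36 and 1.12 in Apcdd1+/- and 1.15 and 1.48 in WT. The libraries of either genotype overlapped for En2, and for En1 both Apcdd1+/- libraries lay below both WT libraries; genotype was not tested within the isthmus gate. In log2 terms, En1 was higher in the isthmus by 5.24 (SE 0.15, edgeR adjusted p = 1.3e-33) and En2 by 4.39 (SE 0.11, adjusted p = 2.3e-35). There 1270 of 11536 genes passed (11%), with 6.89% higher and 4.12% lower. As plain levels, En1 stood at 0.831 against a mean of 0.0577 over the other 7 gates fitted, and En2 at 1.28 against 0.146. The log difference of En1 depends on gates near 0, such as the Hox hindbrain, where 2 of 450 cells had a UMI.

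Pax5, a paired-box factor of the midbrain and cerebellar territory, measured 1.54 and 1.58 UMIs per 10000 in the isthmus of Apcdd1+/- libraries and 1.69 and 1.74 in WT. Pax8, its close relative, measured 0.325 and 0.158 in Apcdd1+/- and 0.219 and 0.180 in WT. For Pax5 the Apcdd1+/- libraries lay below the WT libraries, with the same limit as for En1, and for Pax8 the genotypes overlapped. Pax5 was higher in the isthmus by 4.46 (SE 0.09, edgeR adjusted p = 4.7e-39) and Pax8 by 5.10 (SE 0.20, adjusted p = 2.1e-27). As plain levels, Pax5 stood at 1.64 against a mean of 0.104 over the other 7 gates fitted, and Pax8 at 0.220 against 0.0087. The log difference of Pax8 depends on gates near 0, such as the Hox hindbrain, where 1 of 450 cells had a UMI. Pax2, which also acts in eye and kidney, measured 0.114 in the isthmus and a mean of 0.0189 over the other 7 gates fitted, none of which lay higher. Dorsal midbrain had no Pax2 UMI, so a fitted Pax2 difference depends on a gate at 0, and none is given for any region. A Pax2 UMI was seen in 7.83% of isthmus cells but in 49.1% of 57 optic cells, and the optic gate and the midbrain floor plate gate were left out of the fit for having fewer than 20 cells in a library. Of the 7 genes other than Pax2, 6 passed with a positive difference in the isthmus and 0 with a negative one. Their median log2 difference was 4.39, against -0.0029 for all genes tested. The gate was set by FGF ligands and Cnpy1, and genes and gates were chosen with earlier results of these data known. The count of 6 is therefore not an independent result. Otx2, counted among the 6, stood at 0.33 (SE 0.09, edgeR adjusted p = 0.010), but its plain level of 1.86 lay below the mean of 2.28 over the other 7 gates, 5 of which were higher. Its call was lost without WT replicate 2 (0.25), with DESeq2 (0.21) and with each gate minimum raised by 1 UMI (0.10).

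Away from the isthmus, the En2 difference was 2.01 in dorsal midbrain (SE 0.23, edgeR adjusted p = 3.8e-09) and 1.35 in hindbrain (SE 0.22, adjusted p = 6.7e-06). Its plain level was 0.326 in dorsal midbrain, against a mean of 0.282 over the other gates, and 0.278 in hindbrain, against 0.308. The Pax5 difference was 1.17 in dorsal midbrain (SE 0.23, edgeR adjusted p = 0.00033) and -0.22 in hindbrain (SE 0.22, adjusted p = 0.599). As a plain level Pax5 in dorsal midbrain was 0.250, against a mean of 0.302 over gates that include the isthmus, the only one of the 7 to lie higher. The En1 difference in dorsal midbrain was 1.29 (SE 0.41, edgeR adjusted p = 0.049), with a level of 0.0899 against a mean of 0.164 and 2 gates higher. Its call was lost without Apcdd1+/- replicate 1 (1.02), Apcdd1+/- replicate 2 (1.32) or WT replicate 1 (1.43), and with DESeq2 (1.04). Within the hindbrain, En2 had a UMI in 24.8% of Msx3-gated cells and 1.33% of Hox-gated cells, and Pax5 in 13.5% and 1.56%. Pax2 had no UMI in 424 dorsal midbrain cells, which allows up to 0.708% of cells with a UMI and sets no limit on cells expressing the gene. Mesenchyme-like cells had a Pax2 UMI in 0.625%. In telencephalon En1 (-3.52, SE 0.69), En2 (-3.38, SE 0.39) and Pax5 (-1.15, SE 0.22) were lower, and Pax2 measured 0.0312 against a mean of 0.0307 over the other gates. En1 had a UMI there in 7 of 1731 cells (0.404%), beside 0.688% of mesenchyme-like cells, and its median over libraries was 0. The size of its difference therefore depends on a level near 0.

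**Figure D2:**
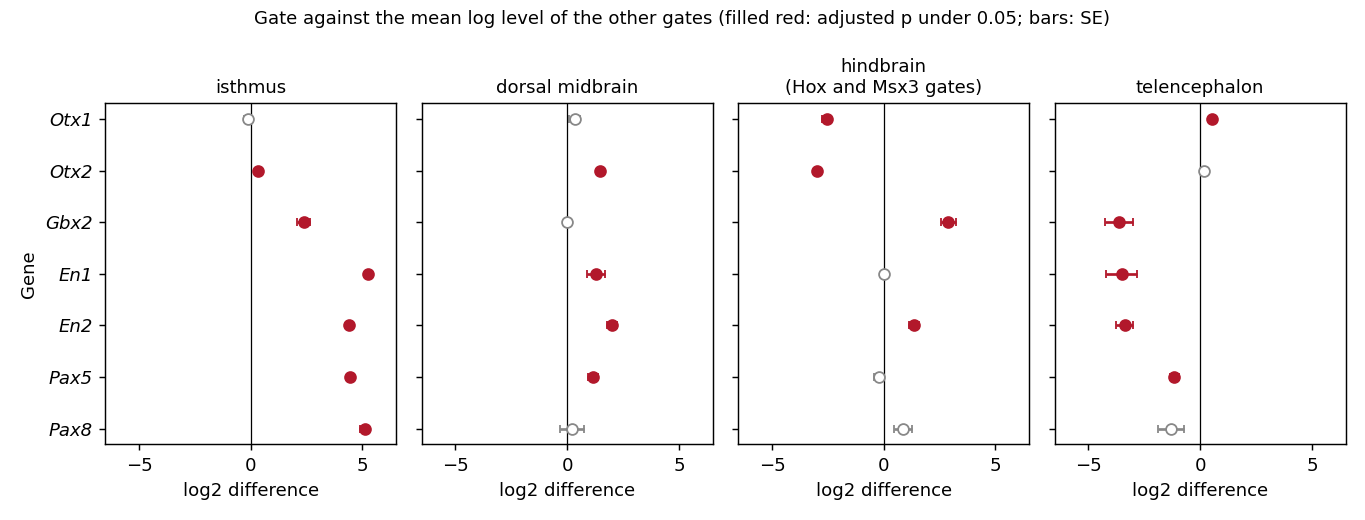
Log2 difference of 7 genes (rows) between a gate and the unweighted mean of the other gates' log levels, with SE as bars; filled points passed an edgeR adjusted p of 0.05, and Pax2 is not drawn, since dorsal midbrain had no UMI of it. Otx1 and Otx2 lie left of 0 in hindbrain, and Gbx2 right of it.

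Cell by cell, co-detection was read in the 6 midbrain and hindbrain gates after thinning each cell to 4000 UMIs, which left 3819 of 3930 cells. The expected number of cells with both genes came from each gene's frequency within each library; intervals are exact Poisson intervals at 95% and cover counting error only. Otx2 and Gbx2 were seen together in 4 cells where 24.5 were expected, a ratio of 0.163 (interval 0.0445 to 0.418). By library, 3 and 0 cells held both in Apcdd1+/- and 0 and 1 in WT, against 11.3 and 2.98 expected in Apcdd1+/- and 6.61 and 3.61 in WT. Every library lay below a ratio of 1, and the ratio ranged from 0.0757 to 0.239 over 10 alternatives. Doublets were not removed, and their part in cells with both genes was not tested.

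Of the 28 pairs, 10 lay above 1 in all 4 libraries and 6, Otx2 with Gbx2 among them, below 1 in all 4. Some of these pairs rest on few cells. Otx1 with Gbx2 and Otx1 with Pax2, counted as below 1, had 0.6 to 1.8 cells expected per library and 0 or 1 seen. How many pairs would lie on 1 side by counting error alone was not computed. Otx1 and Otx2 were seen together in 153 cells where 64.3 were expected, a ratio of 2.38 (2.02 to 2.79). For En1 with Pax8 the ratio was 2.57 (1.99 to 3.26), for Pax5 with Pax8 2.35 (1.905 to 2.86), for En1 with Pax5 2.08 (1.83 to 2.35) and for En1 with En2 1.89 (1.66 to 2.15). These gates mix regions in which the genes are high and low. Within the isthmus gate alone, Otx2 and Gbx2 were seen together in 4 cells where 16.2 were expected, a ratio of 0.246 (0.0671 to 0.630), below 1 in all 4 libraries. There the Engrailed and Pax pairs were nearer to 1, at 1.63 for En1 with Pax8, 1.54 for Pax5 with Pax8, 1.30 for En1 with Pax5 and 1.21 for En2 with Pax5, each above 1 in all 4 libraries. Of isthmus cells with Pax8, 59.6% had Pax5, and of those with Pax5, 12.5% had Pax8. Otx2 with Pax8 stood at 0.504 and Otx2 with Pax5 at 0.792 in the isthmus, below 1 in all 4 libraries. The pair Gbx2 with Pax2, counted among the 10 above 1, had a ratio of 4.24 on 6 cells, and 0.844 when cells were thinned to 8000 UMIs.

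**Figure D3:**
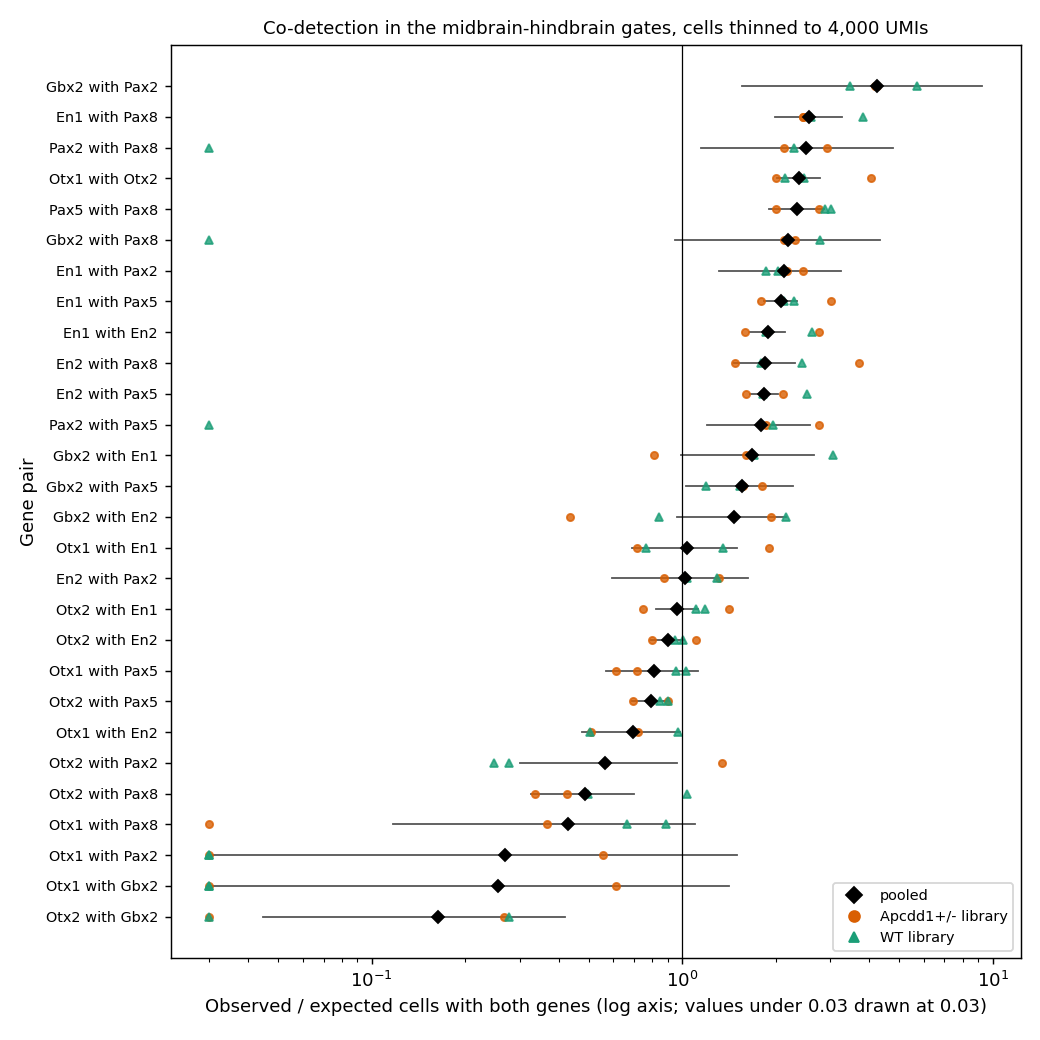
Ratio of observed to expected cells with both genes (log axis) for the 28 pairs (rows) in the midbrain and hindbrain gates; black diamonds are pooled values with Poisson intervals, circles Apcdd1+/- libraries and triangles WT libraries, with library values under 0.03 drawn at 0.03. Otx2 with Gbx2 is lowest at 0.163, and the Engrailed and Pax pairs other than En2 with Pax2 lie between 1.80 and 2.57.

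Counting how many of En1, En2, Pax2, Pax5 and Pax8 a thinned isthmus cell held, 33.5% of 1973 cells held none, 32.8% held 1, 24.8% held 2, 7.45% held 3 and 1.42% held 4. A single cell held all 5. In the dorsal midbrain 84.2% held none, and in the Msx3 hindbrain 80.9%. Both gates lack the cells that also passed the isthmus gate, which was matched earlier. The part of this order in the shares was not tested.

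To set the sides of the border apart, cells of the midbrain and hindbrain gates were split by Otx2 and Gbx2 themselves, into 1544 cells with Otx2 and no Gbx2 and 198 with Gbx2 and no Otx2; 21 had both and 2167 neither. Median depth was 13360.5 UMIs on the Otx2 side and 13719 on the Gbx2 side. The gates entered the sides in unlike proportions. In the floor plate gates, Otx2 had a UMI in 74 of 79 and 203 of 295 cells, and Gbx2 in 2 and 3. In the Msx3 hindbrain gate, 68 and 48 of 665 cells had one. A difference between the sides can therefore hold a difference between gates, and the part of this mix was not tested. Since the split used Otx2 and Gbx2, their own values are not a result. Otx1 had 832 UMIs on the Otx2 side and 2 on the Gbx2 side, a ratio of 56.3 per UMI sequenced (counting interval 15.5 to 465). Pax8 measured 0.099 and 0.046 UMIs per 10000 on the Otx2 side in Apcdd1+/- and 0.071 and 0.075 in WT. On the Gbx2 side it measured 0.545 and 0.159 in Apcdd1+/- and 0.189 and 0.317 in WT, and no library of one side reached the other. Pax5 measured 0.793 and 0.698 on the Otx2 side in Apcdd1+/- and 0.826 and 0.888 in WT, and 1.97 and 0.755 on the Gbx2 side in Apcdd1+/- and 1.57 and 1.07 in WT. There the sides overlapped through Apcdd1+/- replicate 2.

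Of 10772 genes, 3.96% passed between the sides (2.10% higher and 1.87% lower on the Otx2 side). Pax8 was lower on the Otx2 side by -1.98 (SE 0.28, edgeR adjusted p = 2.3e-07) and Pax5 by -0.74 (SE 0.13, adjusted p = 2.1e-05). Pax5 lost its call with each gate minimum raised by 1 UMI (-0.42) and against all cells lacking an Otx2 UMI (-0.23). The differences were -0.45 for En1 (SE 0.16, edgeR adjusted p = 0.131), -0.45 for En2 (SE 0.15, adjusted p = 0.081) and -1.36 for Pax2 (SE 0.46, adjusted p = 0.094). Leaving out Apcdd1+/- replicate 2 brought these 3 past the threshold, at -0.64, -0.66 and -1.56, leaving out WT replicate 2 did so for Pax2 (-1.58), as did taking all cells lacking an Otx2 UMI (-1.02), and keeping cells in exactly 1 gate did so for En2 (-0.81).

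Within the isthmus gate, the thinned Otx2-only cells numbered 642 and the Gbx2-only cells 43, of which 24 and 3 came from the Apcdd1+/- libraries and 9 and 7 from WT. The shares pool the cells of 4 libraries, cells are not replicates, and the Wilson intervals cover counting error only. Pax5 was detected in 30.7% (Wilson interval 27.2 to 34.4) and 51.2% (36.8 to 65.4) of them, Pax8 in 4.05% and 16.3%, and Pax2 in 2.02% and 14.0%. By library, Pax8 ranged from 2.30% to 5.56% of Otx2-only cells and from 0% to 33.3% of Gbx2-only cells, and Pax5 from 27.8% to 36.6% and from 42.9% to 66.7%. En1 was detected in 23.7% of Otx2-only and 37.2% of Gbx2-only cells. The intervals of En1, En2 and Otx1 overlapped between the states. Of the genes that set the gate, Cnpy1 was detected in 56.1% of Otx2-only and 65.1% of Gbx2-only cells, and Fgf8 in 12.1% and 27.9%. In the 1284 isthmus cells with neither Otx2 nor Gbx2, Cnpy1 was detected in 62.9% and Fgf8 in 18.2%. Most cells of the gate thus showed no Fgf8 UMI at this depth. These shares carry no test.

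**Figure D4:**
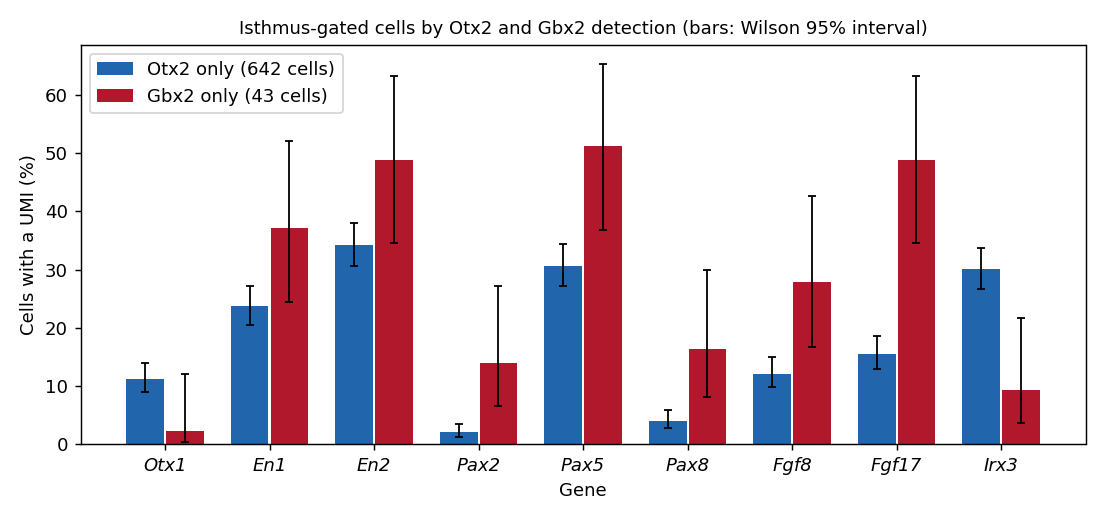
Share of cells (percent, bars with Wilson 95% intervals) with a UMI of each gene among isthmus-gated cells with Otx2 only and with Gbx2 only, thinned to 4000 UMIs. Cells are pooled over 4 libraries (642 Otx2-only and 43 Gbx2-only, 24 of the 43 from 1 library), and the bars of Otx1, En1 and En2 overlap in their intervals; Fgf8 and Fgf17 helped to define the gate.

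A list of 30 isthmic network genes was followed, of which 23 define no gate. In the isthmus 19 of these 23 were higher and 0 lower, where 6.89% of all genes tested were higher and 4.12% lower, with a median log2 difference of 1.73 against -0.0029 for all genes. The 10 with the lowest adjusted p included Hes3, a repressor of differentiation in the isthmus (3.97, SE 0.15), and the ETS factors induced by FGF signalling, Etv4 (3.03, SE 0.16) and Etv5 (2.37, SE 0.12). They also included the FGF antagonists Il17rd (2.94, SE 0.09), Spry1 (2.80, SE 0.13) and Spry2 (1.97, SE 0.14), and Dusp6, a phosphatase that inactivates ERK (1.49, SE 0.10). The last of the 10 were Sp8, a zinc finger factor (2.12, SE 0.12), Pax3, a dorsal paired-box factor (1.73, SE 0.11), and Fgf15, an FGF ligand (1.67, SE 0.11). Wnt1 (2.24, SE 0.27), named after its value was seen, passed too. Barhl1, Meis2, Axin2 and Fgfr1, also named after their values were seen, did not pass. The isthmus gate was set by FGF ligands and Cnpy1, and the list was chosen with earlier results of these data known. The count of 19 is therefore not an independent result.

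Between the sides, 7 of the 22 tested were higher on the Otx2 side and 7 lower, where 2.10% and 1.87% of all genes were, with a median of -0.051 against -0.0050 for all genes. Dmbx1, a midbrain homeodomain factor, had 676 UMIs on the Otx2 side and 0 on the Gbx2 side, which makes it at least 30.5-fold higher on the Otx2 side, with 3 counts over the side as the floor. Sp5, a Wnt target, had 638 UMIs on the Otx2 side and 2 on the Gbx2 side, a ratio of 43.1 per UMI sequenced (counting interval 11.9 to 357). Meis2, a homeodomain factor of the tectum, was higher by 1.23 (SE 0.12, edgeR adjusted p = 1.2e-11) and Wnt1 by 2.15 (SE 0.49, adjusted p = 0.0025). Irx2, an Iroquois factor, was lower on the Otx2 side by -1.21 (SE 0.14, edgeR adjusted p = 1.7e-09), Pax3 by -1.11 (SE 0.13, adjusted p = 6.1e-10), and Il17rd by -0.98 (SE 0.13, adjusted p = 4.0e-08). The others to pass were Nkx6-1 (0.93, SE 0.24), Irx3 (0.42, SE 0.12) and Barhl1 (170 UMIs on the Otx2 side and 3 on the Gbx2 side) as higher, and Hes3 (-0.78, SE 0.20), Etv4 (-0.996, SE 0.28), Spry1 (-0.68, SE 0.21) and Dusp6 (-0.57, SE 0.16) as lower. Of these 4, Dusp6 was lower on the Otx2 side in all 4 libraries and the others in 3 of 4. Hes3 measured 0.177 UMIs per 10000 on the Otx2 side and 0.130 on the Gbx2 side in WT replicate 2. In Apcdd1+/- replicate 2, Etv4 measured 0.157 on the Otx2 side and 0.0946 on the Gbx2 side, and Spry1 0.262 and 0.172. Irx3 differed little in WT, at 1.37 and 1.49 on the Otx2 side against 1.26 and 1.48 on the Gbx2 side. In Apcdd1+/- it measured 1.18 and 1.25 against 0.588 and 0.721. The genes that defined gates are not counted. With all cells lacking an Otx2 UMI in place of the Gbx2 side, 8.91% of 12401 genes passed, and of the 23 list genes 9 were higher and 4 lower. Dmbx1, Sp5, Meis2, Wnt1, Irx3 and Barhl1 were again higher and Irx2, Pax3 and Il17rd again lower. The calls of Hes3 (-0.088), Etv4 (-0.27), Spry1 (-0.27) and Dusp6 (-0.0097) were lost, and so was that of Nkx6-1, whose difference there was -0.16.

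Likeness of pattern was measured as Pearson's r of log2(CPM + 1) over 40 sums, 10 gates by 4 libraries, among 10043 genes; the sums share libraries and depth, and r is a description. Otx1 and Otx2 were each other's nearest gene (r = 0.88), as were En2 and Pax5 (0.84), and Pax8 was nearest to Pax5 (0.82). Gbx2 was nearest to Hes6 (0.70) and Akr1b3 (0.69), En1 to Hpgds (0.77) and Gm17455 (0.73), and Pax2 to Vax2 (0.87) and Minar2 (0.84).

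Neuron-like cells, 2390 in all, also held the genes. Otx2 had a UMI in 45.4% of them, Pax5 in 10.9%, En1 in 9.25% and Gbx2 in 0.795%. The shares in mesenchyme-like cells were 7.07% for Otx2, 0.688% for En1 and 0.188% for Gbx2, and 48 of 3198 such cells had Pax5, at a median depth of 8618 UMIs in neurons and 14419 in mesenchyme. Pax2 had a UMI in 8.54% of 738 neurons with Lhx1 or Lhx5 and in 2 of 222 with Isl1, beside 0.625% of mesenchyme-like cells, and the Wilson interval of the Isl1 share (0.247% to 3.22%) holds that share. In 2098 thinned neurons, Otx2 and Pax2 were seen together in 3 cells where 21.6 were expected, a ratio of 0.139 (interval 0.0286 to 0.406). En1 with En2 had a ratio of 5.26 (3.88 to 6.98), above 1 in all 4 libraries. For these ratios the neurons were not split by type or region, and the part of such a mix was not tested.

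Genotype was compared last. In the midbrain and hindbrain gates, Otx2 measured 2.09 and 1.20 UMIs per 10000 in Apcdd1+/- libraries and 1.61 and 2.19 in WT, and Gbx2 0.055 and 0.050 in Apcdd1+/- and 0.060 and 0.042 in WT. En2 measured 1.04 and 0.566 in Apcdd1+/- and 0.672 and 0.737 in WT, and Pax8 0.212 and 0.075 in Apcdd1+/- and 0.116 and 0.085 in WT. The genotypes overlapped for each of the 8 genes. Log2 differences ran from -0.16 for Otx1 (SE 0.24) to 0.48 for Pax8 (SE 0.37, edgeR adjusted p = 1.00), and 0 of 13009 genes passed (0%), with 211 at an unadjusted p under 0.05 and 1 with DESeq2. Over all kept cells the 8 lay between -0.19 for Gbx2 and 0.25 for Pax8, and 0 of 15966 genes passed with edgeR, 188 at an unadjusted p under 0.05 and 3 with DESeq2. Without Apcdd1+/- replicate 1, 109 genes passed over all kept cells and 21 in the gates, and without Apcdd1+/- replicate 2, 222 and 130. Without WT replicate 2, 7 passed in the gates. Pax8 passed in the gates without Apcdd1+/- replicate 2, at 0.98. In these fits the lone library of a genotype is assumed to vary like the pair of the other.

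The midbrain and hindbrain gates together took 25.4% and 29.9% of progenitor-like cells in Apcdd1+/- and 32.6% and 32.0% in WT. Both Apcdd1+/- libraries lay below both WT libraries, and the difference of -4.68 percentage points had an exact permutation p of 0.33 (two-sided), the smallest that 2 libraries against 2 can give. It was -2.04 points when cells were thinned to 4000 UMIs before gating, and -6.93 to -2.42 without 1 library. Cells that passed no gate took 40.7% and 35.0% in Apcdd1+/- and 34.8% and 24.1% in WT, also without overlap, at a median depth of 8076.5 and 7521 UMIs in Apcdd1+/- and 9429 and 12585 in WT; the part of depth in the share without a gate was not tested. The isthmus gate took 15.8% and 12.3% of progenitor-like cells in Apcdd1+/- and 15.9% and 14.7% in WT (exact permutation test, two-sided p = 0.667). The Hox hindbrain gate took 0.393% and 5.93% in Apcdd1+/- and 3.76% and 7.04% in WT. The share of Apcdd1+/- replicate 1 was the lowest. The part of this gate in the expression sums compared between genotypes is given by the alternative without it. By gate, the difference in share was -2.24 percentage points in Hox hindbrain, -1.23 in isthmus and -1.14 in other floor plate. It was -0.157 in midbrain floor plate, -0.0538 in dorsal midbrain and 0.145 in Msx3 hindbrain. Whether the genotypes stay apart in the summed share without the Hox gate was not tested.

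**Figure D5:**
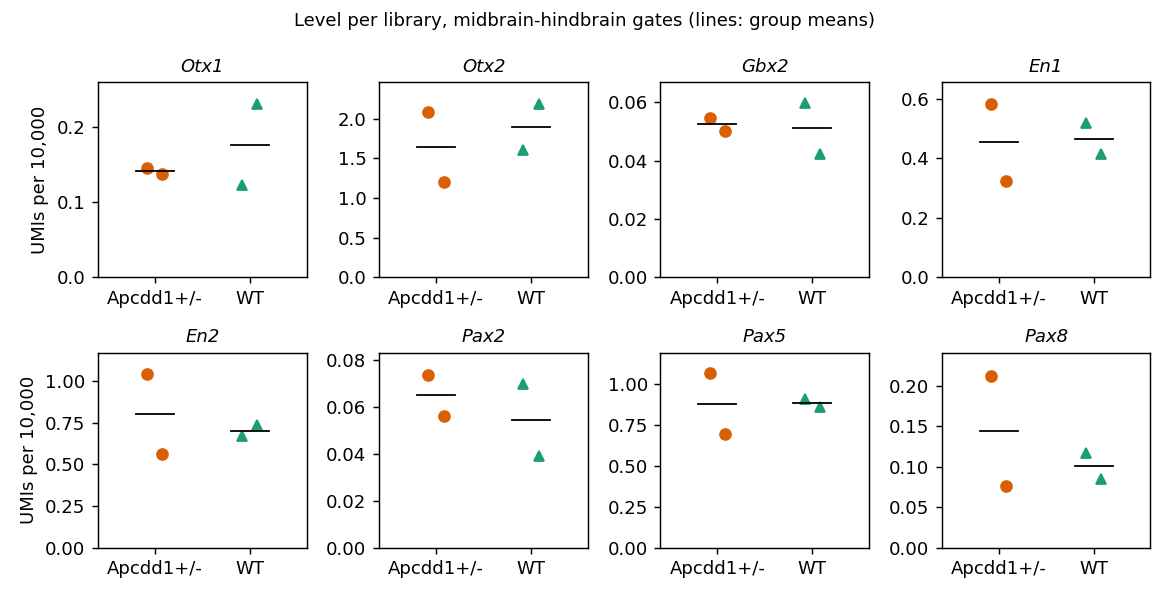
Level of each gene per library (UMIs per 10000) in the midbrain and hindbrain gates, Apcdd1+/- libraries as circles and WT libraries as triangles, with group means as lines. The libraries of the genotypes overlap in all 8 panels.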

How the data were processed

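Per the labels' protocols, embryo heads were dissociated, DAPI-sorted and sequenced as droplet libraries (DNBelab C kit). The deposited matrices hold raw UMI counts per gene and cell, made by the authors with PISA 0.12 per the file headers; the submitters' processing notes name mm10 and Scanpy 1.9.1, and counting over strands is not stated. Total UMIs per library ran from 55393605 to 96822641. The barcode list of Apcdd1+/- replicate 1 ends early, so barcode sharing was read on the listed cells.

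Cells with at least 500 genes and under 10% mitochondrial UMIs were kept. Classes took the highest marker score with at least 3 markers detected. One gate marker is not reported here. Doublets were neither called nor removed. UMIs were summed per library, gate or side and tested with edgeR 4.0.16 (quasi-likelihood, TMM, filterByExpr, Benjamini-Hochberg adjustment over all genes, threshold 0.05; R 4.3.3). Region and side fits had library as a block. The region contrast set a gate against the unweighted mean of the other gates' fitted log levels. The standard error is the log2 difference divided by the root of F. DESeq2 1.42.0, other filters, gates, thinning depths and left-out libraries were tried as alternatives, and the steps were tested on simulated data. Intervals (95%) and the floor of 3 counts cover counting error only.

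Named were the 8 genes, Apcdd1, list genes past the threshold (at most 10 a direction by adjusted p, in the isthmus and side comparisons) and up to 3 genes of most like pattern with a mean of at least 5 CPM; genes named outside this rule are marked in the text. The genes, lists and gates were chosen with earlier results of these data known.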

Additional observations from a re-analysis of the deposited data

How the results depend on the processing

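With 2 libraries a genotype and few Gbx2 cells, counts of calls moved with the settings. Genotype calls (0 in each set) were 3 with DESeq2, 3 with no low-count filter and 5 with a replicate block over all kept cells; 1, 16 and 31 in progenitor-like cells; and 1 with DESeq2 and 15 with no filter in the midbrain and hindbrain gates, where the block gave 0. Same-numbered libraries deviated together (correlation 0.240, 0.190 and 0.211 in these sets), but with 2 pairs and no label saying so the pairing is not taken from the design. Dorsal midbrain calls were 456 with gate minimums raised by 1 UMI, against 691, and hindbrain calls 1100 with cells in exactly 1 gate, against 1659. Side calls (427) were 200 with DESeq2, 156 with cells in exactly 1 gate and 1105 against all cells lacking Otx2. Leaving out 1 library gave 0 to 222, 0 to 57 and 0 to 130 genotype calls, 419 to 589 dorsal midbrain calls, 1060 to 1374 hindbrain calls and 259 to 421 side calls. The causes were not tested.

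Genotype differences changed sign when 1 library was left out. Over all kept cells they ran from -0.13 to 0.26 (Otx1), -0.072 to 0.15 (Otx2), -0.44 to 0.095 (Gbx2), -0.38 to 0.18 (En1), -0.45 to 0.52 (En2), -0.20 to 0.052 (Pax2), -0.35 to 0.19 (Pax5) and -0.54 to 0.73 (Pax8). In the gates they ran from -0.49 to 0.24, -0.52 to 0.22, -0.34 to 0.26, -0.40 to 0.38, -0.29 to 0.59, -0.33 to 0.67, -0.22 to 0.34 and -0.42 to 0.98 in the same order. Gbx2 there was 0.26 with cells in exactly 1 gate, and without the Hox gate, an alternative chosen after seeing the data, Gbx2 was 0.0066, En1 -0.068, Pax2 -0.0016 and Pax5 -0.023. Differences in gate share ran from -5.00 to 0.531 (Hox), -1.56 to 1.85 (Msx3), -0.662 to 0.555 (dorsal midbrain) and -3.01 to 0.552 percentage points (isthmus).

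Region values not called in their comparison changed sign too. In dorsal midbrain Otx1 was -0.053 with cells in exactly 1 gate and -0.30 with raised minimums, and Gbx2 0.052 with DESeq2, 0.35 and 0.72 in those settings; leaving out a library gave -0.55 to 0.28 for Gbx2 and -0.41 to 0.97 for Pax8. In hindbrain En1 was -0.042 with class scores 1.5 times the next and -0.16 to 0.34 without 1 library, and Pax5 0.45 and 0.43 with exactly 1 gate and raised minimums and -0.48 to 0.012 without 1 library. Otx2 in telencephalon was -0.62 with exactly 1 gate, En1 between sides 0.25 against all cells lacking Otx2, also chosen after seeing the data, and Gbx2 with Pax2 0.844 thinned to 8000 UMIs.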

Other observations

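Epithelium-like cells (832) held the Otx genes and few of the others. Otx2, which is also known from head ectoderm, had a UMI in 45.3% of them and Otx1 in 25.4%, at mean levels of 0.905 ± 0.119 and 0.300 ± 0.022 UMIs per 10000 (SD, n = 4 libraries). Pax2 had a UMI in 1.32% and Pax8 in 0.962%. In mesenchyme-like cells (3198), Otx2 had a UMI in 7.07% and Otx1 in 1.59%, with median depths of 12552.5 UMIs in epithelium and 14419 in mesenchyme.

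Among progenitor-like cells that passed no gate (4827), Otx2 had a UMI in 57.4%, En2 in 10.2%, Pax5 in 8.27% and Gbx2 in 0.704%, at a median depth of 8502 UMIs. After thinning, no such cell held both Otx2 and Gbx2, where 5.48 were expected. En2 with Pax5 had a ratio of 3.94 (Poisson interval 2.95 to 5.17), above 1 in 3 of 4 libraries. The cells were not split by region, and the part of a mix of regions in these values was not tested.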
